A study of Mus musculus with 4 samples.

Results

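The expression of 8 multi-copy gene families of the mouse cleavage-stage embryo was followed in embryonic stem cells before and after conditional removal of the Polycomb gene Cbx2. Members were taken by gene symbol: those starting with Eif1ad and a digit, Tdpoz, Zscan4, Usp17l, Tcstv, Pramel, Obox or Oog. The symbols gave 97 members among 22266 genes, with 46 in Pramel, 16 in Eif1ad, 9 in Tdpoz, 8 in Zscan4, 7 in Obox, 5 in Usp17l, 4 in Oog and 2 in Tcstv. The cells were female mouse embryonic stem cells of the line PGK12.1, grown on gelatin with serum and leukemia inhibitory factor, in which Cbx2 is floxed on both alleles and carries a HaloTag (CBX2fl/fl-HaloTag). The OHT group, labelled knockout, was given 1.0 µM 4-hydroxytamoxifen for 48 hours and taken on day 2 (n = 2 libraries). The EtOH group, labelled wildtype, was given ethanol and taken on day 0 (n = 2 libraries). Both groups carry the floxed, tagged allele, and the labels do not name the recombinase or say whether the line is 1 clone. Effects of 4-hydroxytamoxifen, of 2 further days and of losing Cbx2 cannot be told apart, since no library analysed here combines the drug with an intact Cbx2. All 4 libraries carry the label batch 2, and nothing in the labels ties the replicates to different cultures. The p-values below therefore reflect the spread among these libraries alone, which may be technical.

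In the mouse, the embryonic genome is first switched on strongly at the 2-cell stage, when several tandem families are transcribed at high level for a short time. In embryonic stem cell cultures a small, changing fraction of cells passes through a similar state, known as 2-cell-like, in which the transcription factor DUX switches on Zscan4, Eif1ad, Tdpoz, Usp17l and Tcstv genes. Pramel genes encode leucine-rich repeat proteins related to PRAME, and some of them are expressed in pluripotent cells. Obox genes encode homeobox proteins and Oog genes encode oogenesins, both best known from the oocyte. CBX2 is a chromodomain subunit of Polycomb repressive complex 1. In bulk RNA, fewer cells in a state and less RNA in each such cell cannot be told apart.

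Expression is given in TPM, in which reads are divided by transcript length and scaled so that each library sums to 1000000. TPM keeps no depth, so the sequencing depth is unknown and no counting interval can be given. Cbx2 itself was at 0.749 and 1.14 TPM in the OHT libraries, against 2.29 and 2.71 TPM in the EtOH libraries, so the groups did not overlap. The difference of Cbx2 was -0.85 ± 0.19 on the log2(TPM + 1) scale (SE, n = 2 each) and did not pass the test (limma adjusted p = 0.265). A difference on that scale understates the fold change of low genes. Embryonic stem cell markers were high in all libraries: Pou5f1, Nanog, Sox2, Esrrb, Zfp42 and Tfcp2l1 summed to 4374 and 4524 TPM in the OHT libraries, against 3903 and 3948 TPM in the EtOH libraries. The 7 fibroblast markers summed to 8.46 and 12.2 TPM in OHT, against 6.99 and 6.02 TPM in EtOH, most of it Thy1. Col1a1 was at 0.560 and 0.777 TPM in OHT, against 0.254 and 0.380 TPM in EtOH. Thy1, Col1a1 and Col1a2 were higher in both OHT libraries than in both EtOH libraries, Dcn was lower, and Col3a1 and Lum overlapped. Postn was listed at 0 in all 4 libraries, and Dcn and Lum were at no more than 0.148 TPM. The 6 primitive endoderm markers summed to 6.21 and 7.53 TPM in OHT and 6.58 and 6.27 TPM in EtOH. The 6 trophoblast markers summed to 53.8 and 57.9 TPM in OHT and 50.5 and 50.4 TPM in EtOH. The part of these marker levels in the family values was not tested.

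Many copies within a family, though not all, differ so little in sequence that many reads cannot be assigned to one of them. All 16 Eif1ad copies lie on chromosome 12, between 87494721 and 88324026 of GRCm38, 7 with several exons and 9 with a single exon. They are relatives of the translation initiation factor gene Eif1a, whose protein helps the small ribosomal subunit find the start codon. Each holds a coding region of 432 bases in GENCODE M21, and the 120 pairs of copies were 95.6 to 100% identical, with a median of 97.2%. Only 48 positions vary at all, and 13 of them fall in the stretch of 60 bases from base 363 to base 422, counted from the first base of the start codon. That stretch is shown for the copies the results turn on, 5′ to 3′ on the coding strand, with capitals where a copy has a base found in fewer than 8 of the 16. At 1 further position of the stretch 8 copies have each of 2 bases, and neither is in capitals.
Eif1ad10 (chr12:88249679-88249738, minus strand): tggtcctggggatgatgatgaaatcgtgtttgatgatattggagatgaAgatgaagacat
Eif1ad8 (chr12:87517259-87517318, plus strand): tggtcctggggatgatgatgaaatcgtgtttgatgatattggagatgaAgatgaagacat
Eif1ad4 (chr12:87895732-87895791, plus strand): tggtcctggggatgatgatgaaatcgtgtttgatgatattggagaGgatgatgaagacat
Eif1ad17 (chr12:88012210-88012269, plus strand): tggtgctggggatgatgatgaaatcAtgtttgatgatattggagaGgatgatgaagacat
Eif1ad2 (chr12:87819683-87819742, plus strand): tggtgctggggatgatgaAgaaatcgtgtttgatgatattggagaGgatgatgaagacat
Eif1ad6 (chr12:87621962-87622021, plus strand): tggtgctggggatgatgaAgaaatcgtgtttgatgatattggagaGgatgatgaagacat
Eif1ad7 (chr12:88271567-88271626, minus strand): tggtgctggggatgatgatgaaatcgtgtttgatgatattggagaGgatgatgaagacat
Eif1ad15 (chr12:88321060-88321119, minus strand): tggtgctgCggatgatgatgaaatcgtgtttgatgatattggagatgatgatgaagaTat
Eif1ad10 and Eif1ad8 are the same in this stretch and differ at 2 bases over the whole coding region (99.5% identity). Eif1ad2 and Eif1ad6 have identical coding regions. Words of 31 bases, about the length at which quantification software matches reads to transcripts, gave the same picture. They were compared only with genes listed with TPM values, so copies in unlisted genes are not seen. Of the 405 words in the single-exon transcript of Eif1ad10, 0% were found in no other listed gene, and the same held for Eif1ad4. In Eif1ad17, 16.3% of the words were its own and 76.3% were shared with Eif1ad6. The untranslated sequence of the longer copies set some of them apart, with 64.1% of words unique in Eif1ad15, 56.0% in Eif1ad8, 11.9% in Eif1ad7 and 4.51% in Eif1ad6.

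**Figure D1:**
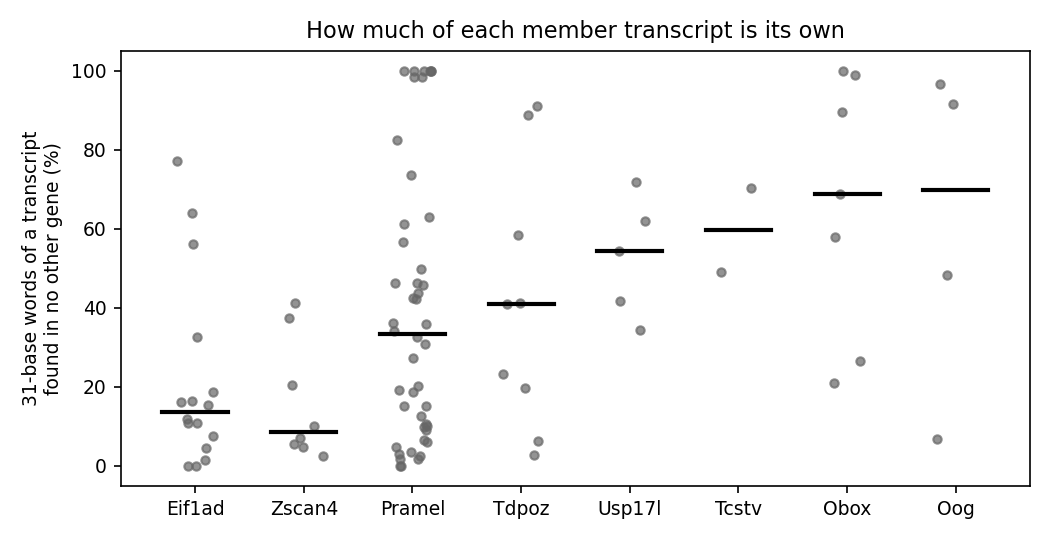
Share of each member transcript made of 31-base words that occur in no other of the 22266 listed genes (y axis, percent), by family (x axis). Each point is a member and the bar is the family's median. The medians were 13.6% in Eif1ad and 8.52% in Zscan4, against 69.9% in Oog and 68.8% in Obox, so single Eif1ad and Zscan4 copies are the least separable.

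The plot of unique words places the 8 families on this scale. The median share of unique words was 33.3% in Pramel, 40.8% in Tdpoz, 54.4% in Usp17l and 59.7% in Tcstv. How far shared words stayed within the family differed. A median of 100% of the words of Zscan4, Usp17l and Obox transcripts occurred in no listed gene outside the family. The median was 96.3% in Tdpoz, 86.3% in Pramel and 84.9% in Eif1ad. It was 69.9% in Oog and 61.8% in Tcstv, which lie at or near the unique share. In all, 64 of the 97 members had a copy in their own family at 95% identity or more over at least 50% of the transcript, and 27 had one outside it. The summed TPM of a family is therefore given first, and single copies after it.

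In 5 families the sum was lower in both OHT libraries than in both EtOH libraries, in 1 it was higher in both, and in 2 the groups overlapped. Eif1ad summed to 177 and 175 TPM in OHT, against 237 and 249 TPM in EtOH. The means were 176 ± 1.27 TPM in OHT and 243 ± 8.43 TPM in EtOH (SD, n = 2 each), a difference of -27.5% or -0.46 on the log2 scale, with both OHT libraries far below both EtOH libraries. Tdpoz summed to 6.69 and 7.87 TPM in OHT, against 12.0 and 11.7 TPM in EtOH, a difference of -38.5%. Tcstv summed to 4.94 and 4.52 TPM in OHT, against 6.54 and 7.90 TPM in EtOH, a difference of -34.5%. The log2 differences were -0.64 for Tdpoz and -0.52 for Tcstv, and neither family overlapped between groups. Zscan4 summed to 75.2 and 111 TPM in OHT, against 112.06 and 121 TPM in EtOH, and Usp17l to 8.36 and 14.06 TPM in OHT, against 14.25 and 15.9 TPM in EtOH. For these the low value was in OHT replicate 1, while OHT replicate 2 stood just under the lower EtOH library. Pramel, the most abundant family, summed to 241 and 295 TPM in OHT, on either side of 266 and 267 TPM in EtOH. Obox summed to 3.14 and 2.94 TPM in OHT, against 2.15 and 2.00 TPM in EtOH, 46.5% higher (log2 difference 0.39). Oog was listed at 0 in 3 of the 4 libraries and at 0.0350 TPM in EtOH replicate 1, so no fold is given. With 2 libraries in each group an exact two-sided permutation test cannot go below p = 0.333, and no p is given for a sum.

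**Figure D2:**
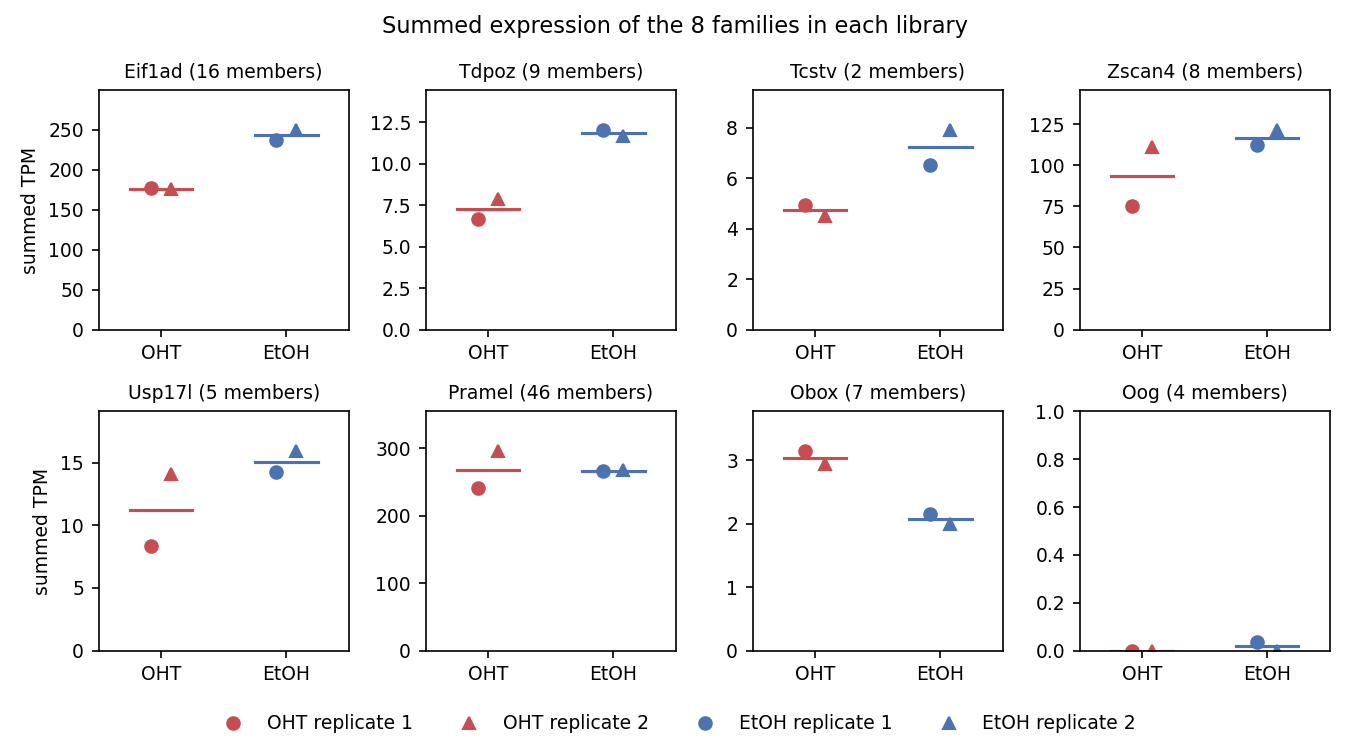
Summed TPM of each family (y axis, linear, from 0) in the OHT libraries (left, red) and the EtOH libraries (right, blue); circles are replicate 1, triangles replicate 2 and bars the group means. Eif1ad, Tdpoz and Tcstv are clearly lower in OHT, Zscan4 and Usp17l are low mainly in OHT replicate 1, Pramel overlaps and Obox is higher in OHT.

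Gene by gene, none of the members passed the test. Of the 97, 18 were listed at 0 in all 4 libraries, 30 were expressed below a mean of 1 TPM, and 49 were tested with limma on log2(TPM + 1) over all 12029 genes at or above that mean. The count of members past an adjusted p of 0.05 was 0, where 5 of all genes tested (0.0416%) passed, 4 of them lower in OHT (0.0333%), and the smallest adjusted p of a member was 0.0615. The count was 14 without OHT replicate 1 (24.6% of all genes passed there), 19 without OHT replicate 2 (20.6%), 4 without EtOH replicate 1 (0.382%) and 2 without EtOH replicate 2 (0.283%), in fits where the lone library of a group is assumed to vary like the other group. Without adjustment, 12 members had p under 0.05 with lower values in OHT (24.5% of those tested), where the share over all genes was 4.46%. None did with higher values, where the share over all genes was 6.02%. Of the 12, 10 were Eif1ad copies and the others were Tdpoz4 and Usp17lb. In 21 members (42.9%) both OHT libraries were below both EtOH libraries, where 19.4% of all genes tested were, and in 3 members (6.12%) both were above, where 23.1% were. The members' median log2 difference was -0.25, and that of all genes tested was 0.02. Members that share reads are not independent of each other, so these counts describe the list and are no test of it.

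Within Eif1ad, the difference was unequal between copies. Eif1ad10 (ENSMUSG00000095799.2, older name Gm8332, a single exon on the minus strand at chr12:88249666-88250100) was the most abundant copy, at 86.7 and 88.0 TPM in OHT, against 98.9 and 101 TPM in EtOH. Its difference of -0.19 ± 0.10 (log2, SE) did not pass (limma adjusted p = 0.562), and it turned to 0.13 once each library's trend with transcript length and GC content was removed. Its share of the family's TPM was 48.9% and 50.2% in OHT, against 41.7% and 40.5% in EtOH. With Eif1ad10 left out, the other 15 copies summed to 90.6 and 87.4 TPM in OHT, against 138 and 148 TPM in EtOH, a difference of -37.9%. By the listed TPM, the less abundant copies thus carried most of the difference in the sum. This split is uncertain, since 0% of the words of Eif1ad10 are unique. Eif1ad8 shares 84.7% of them and Eif1ad3 shares 77.0%. Outside the family, Eif1ad10 has a near-identical copy in Eif1a, and 80% of its words occur in no listed gene outside the family. How reads shared by Eif1ad10, the other copies and Eif1a were divided among them was not tested.

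Eif1ad4 (chr12:87895370-87895804, plus strand, a single exon) was at 5.37 and 3.08 TPM in OHT, against 16.2 and 15.5 TPM in EtOH. Its log2 difference was -1.72 ± 0.25 (SE, limma adjusted p = 0.117), and every OHT value was under every EtOH value, but none of its 31-base words is its own. Eif1ad17 (chr12:88011848-88012282, plus strand, a single exon) was listed at 0 in both OHT libraries, against 1.91 and 2.25 TPM in EtOH, and had the smallest adjusted p of any member (limma, 0.0615). Its mean over the 4 libraries, 1.04 TPM, reached the tested range only through EtOH. The equal values of 0 also leave no spread in OHT, so that p is not taken as support for a difference. Since a listed 0 can be a failed estimate, no fold is given for Eif1ad17. Both copies passed the test when the length and GC trend was removed, where 155 of the 12029 genes passed, and the same limits hold there for Eif1ad17. With single libraries left out, the log2 difference of Eif1ad4 ranged from -2.04 to -1.40. Eif1ad18 was at 1.22 and 1.67 TPM in OHT, against 4.11 and 3.03 TPM in EtOH. Eif1ad13 was at 0.482 and 1.74 TPM in OHT, against 3.22 and 4.50 TPM in EtOH. Both are single-exon copies whose groups did not overlap (limma adjusted p = 0.267 and 0.296).

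The longer, multi-exon copies were mostly lower too. Eif1ad7 (chr12:88270640-88274500, minus strand) was at 18.7 and 20.8 TPM in OHT, against 25.9 and 29.2 TPM in EtOH (log2 difference -0.46, limma adjusted p = 0.372). Eif1ad15 (chr12:88320122-88324026, minus strand) was at 19.3 and 14.7 TPM in OHT, against 24.9 and 28.0 TPM in EtOH (log2 difference -0.62, limma adjusted p = 0.342). Eif1ad15 is the tested copy with the largest share of unique words, and 21.8% of its words are shared with Eif1ad6. Eif1ad8 was at 8.19 and 8.74 TPM in OHT, against 12.4 and 12.1 TPM in EtOH. Eif1ad3, which shares 84.0% of its words with Eif1ad7, was at 18.6 and 15.6 TPM in OHT, against 26.9 and 24.1 TPM in EtOH. Eif1ad3 and Eif1ad7 stood in opposite order in the OHT replicates, but their sum was 37.3 and 36.4 TPM in OHT, against 52.8 and 53.3 TPM in EtOH.

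The exception was the pair with identical coding regions. Eif1ad6 was at 13.9 and 16.0 TPM in OHT, against 14.1 and 14.4 TPM in EtOH (log2 difference 0.06, limma adjusted p = 0.928). Eif1ad2 and Eif1ad6 together summed to 15.1 and 17.1 TPM in OHT, against 16.1 and 15.6 TPM in EtOH, so the pair overlapped between the groups. Summed by gene structure, the 7 copies with several exons gave 80.1 and 77.3 TPM in OHT, against 107 and 110 TPM in EtOH. The 9 single-exon copies gave 97.2 and 98.2 TPM in OHT, against 130 and 140 TPM in EtOH. The differences of the means were -27.3% for the copies with several exons and -27.6% for the single-exon copies.

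**Figure D3:**
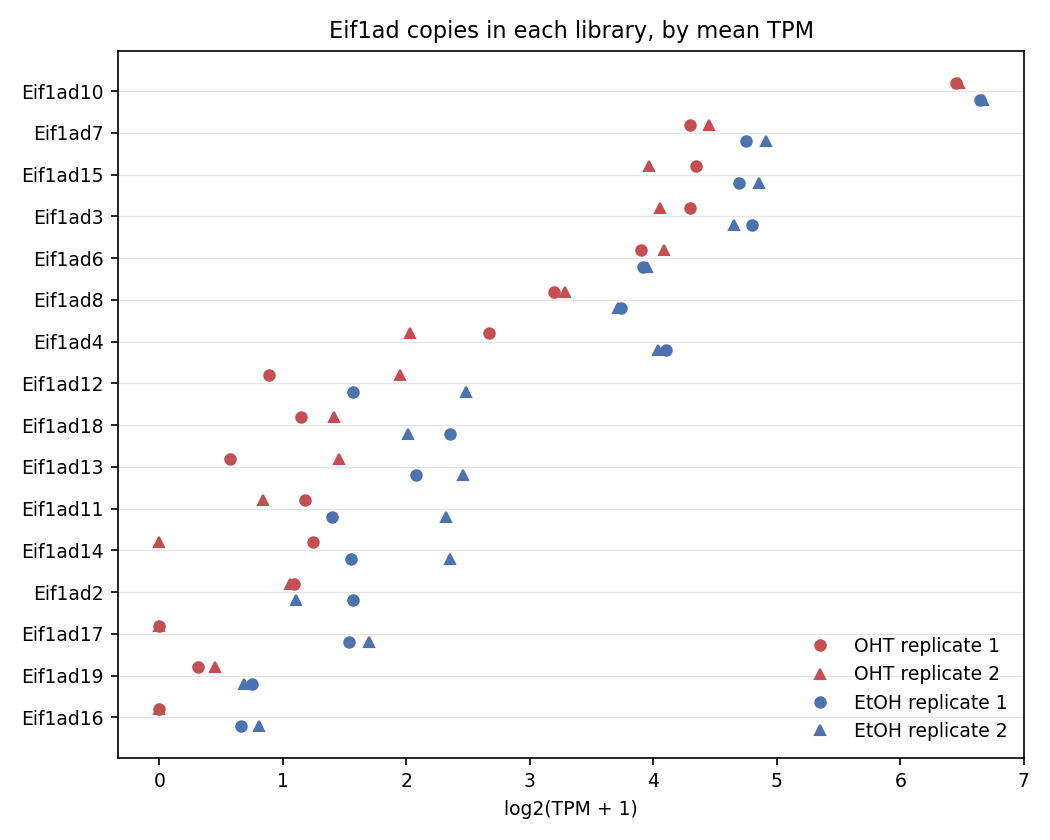
Expression of each Eif1ad copy as log2(TPM + 1) (x axis), with copies ordered by mean TPM down the page; red marks are the OHT libraries (upper of each pair), blue marks the EtOH libraries, circles replicate 1 and triangles replicate 2. Eif1ad4 and Eif1ad17 show the widest gaps between groups, Eif1ad6 overlaps, and Eif1ad10 lies slightly lower in OHT, a direction that turns when the length and GC trend is removed.

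The size of the Eif1ad difference depended on whether each library's trends with transcript length and GC content were removed. Across 12016 genes, the difference between the OHT replicates correlated with log2 transcript length at r = -0.53, and that between the EtOH replicates at r = -0.27. Both describe differences within a group, across genes that share libraries. The correlation of the OHT minus EtOH difference with length was not computed. Once the length and GC trends were taken out together, library by library, the log2 difference of the Eif1ad sum was -0.19. Length and GC content were not removed separately. With members weighted by transcript length instead, the log2 difference of the sum was -0.45. The related gene Eif1a, which has a stretch at 95.2% identity to Eif1ad10, was at 176 and 206 TPM in OHT, against 229 and 236 TPM in EtOH. With Eif1a added, the log2 difference of the Eif1ad sum was -0.37.

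Zscan4 genes encode proteins with a SCAN domain and zinc fingers, linked to telomere maintenance in embryonic stem cells and used as markers of the 2-cell-like state. The 8 members, 3 of them named as pseudogenes though annotated as protein-coding in GENCODE M21, lie on chromosome 7 between 10900740 and 11614112. The start regions of 3 members are given because their transcripts are so alike: 250 bases before and 50 after the start, from the RefSeq promoter table (GRCm38.p6), 5′ to 3′ on the gene's strand. Capitals mark matches to TGATTNAAT, a motif chosen after the sequences were seen and searched on both strands, which is related to the sequence bound by DUX.
Zscan4c (chr7:11005495-11005794, plus strand): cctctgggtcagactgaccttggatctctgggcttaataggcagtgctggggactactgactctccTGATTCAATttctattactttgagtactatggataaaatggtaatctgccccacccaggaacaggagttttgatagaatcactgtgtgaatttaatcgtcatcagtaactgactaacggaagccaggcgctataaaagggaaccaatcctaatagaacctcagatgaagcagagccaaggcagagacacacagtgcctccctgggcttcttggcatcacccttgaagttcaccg
Zscan4f (chr7:11397665-11397964, plus strand): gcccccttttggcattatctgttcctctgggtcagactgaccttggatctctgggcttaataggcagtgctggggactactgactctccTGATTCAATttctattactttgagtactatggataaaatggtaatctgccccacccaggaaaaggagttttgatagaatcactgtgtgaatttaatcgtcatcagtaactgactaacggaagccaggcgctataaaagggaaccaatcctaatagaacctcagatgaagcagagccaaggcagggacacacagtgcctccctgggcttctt
Zscan4d (chr7:11166099-11166398, minus strand): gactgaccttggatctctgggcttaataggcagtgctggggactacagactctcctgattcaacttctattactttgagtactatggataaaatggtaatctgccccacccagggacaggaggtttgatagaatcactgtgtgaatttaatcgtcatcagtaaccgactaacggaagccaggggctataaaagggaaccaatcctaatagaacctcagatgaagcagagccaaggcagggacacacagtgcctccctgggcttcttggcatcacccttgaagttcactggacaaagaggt
Zscan4c and Zscan4f carry the motif and Zscan4d has no match in this window. Over all promoters of the table the motif was in 236 of 32851 (0.718%), and among the 63 members with a promoter it was in 13. Those were 3 of 4 in Zscan4, 3 of 5 in Eif1ad, 5 of 36 in Pramel and 2 of 4 in Oog, and there was none among 5 in Tdpoz, 4 in Usp17l and 5 in Obox. The same motif followed by CA was in 11 promoters (0.0335%) and in 0 members. The E-box CACGTG, bound by MAX complexes, was in 2349 promoters (7.15%) and in 0 members. The Eif1ad2 start region shows the same motif in another family.
Eif1ad2 (chr12:87816327-87816626, plus strand): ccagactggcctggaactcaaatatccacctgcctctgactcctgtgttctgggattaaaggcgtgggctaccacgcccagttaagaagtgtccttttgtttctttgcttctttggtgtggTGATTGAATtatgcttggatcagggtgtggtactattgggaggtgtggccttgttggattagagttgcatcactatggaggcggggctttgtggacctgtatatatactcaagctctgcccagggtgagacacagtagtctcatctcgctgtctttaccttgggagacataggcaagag
A match is a description of letters and not of binding.

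All 8 Zscan4 members had lower means in OHT, but most overlapped between the groups. Zscan4f (chr7:11397915-11402318, plus strand), the most abundant, was at 21.4 and 38.4 TPM in OHT, against 38.1 and 41.4 TPM in EtOH (log2 difference -0.46, SE 0.27, limma adjusted p = 0.624). Zscan4c (chr7:11005745-11010547, plus strand) was at 13.6 and 16.9 TPM in OHT, against 18.7 and 17.7 TPM in EtOH (log2 difference -0.25, limma adjusted p = 0.681). Zscan4e was at 9.74 and 16.5 TPM in OHT, against 14.5 and 19.2 TPM in EtOH (log2 difference -0.37, limma adjusted p = 0.699). In each of these OHT replicate 1 was the lowest of the 4 libraries. Zscan4d (chr7:11161374-11166159, minus strand), with 41.2% of its words unique, was at 5.17 and 8.06 TPM in OHT, against 10.5 and 9.67 TPM in EtOH (log2 difference -0.56, limma adjusted p = 0.480). Zscan4c and Zscan4d, 2 of the 8, were the members whose groups did not overlap, both lower in OHT. Over all genes tested, 19.4% lay below without overlap, so this count is near that share. In 7 of the 8 members OHT replicate 1 was below OHT replicate 2, and so were 35 of all 49 tested members and 76.1% of all genes tested. Against the EtOH mean, the Zscan4 sum was -0.62 (log2) in OHT replicate 1 and -0.07 in OHT replicate 2, so 1 library decides the size of the difference.

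**Figure D4:**
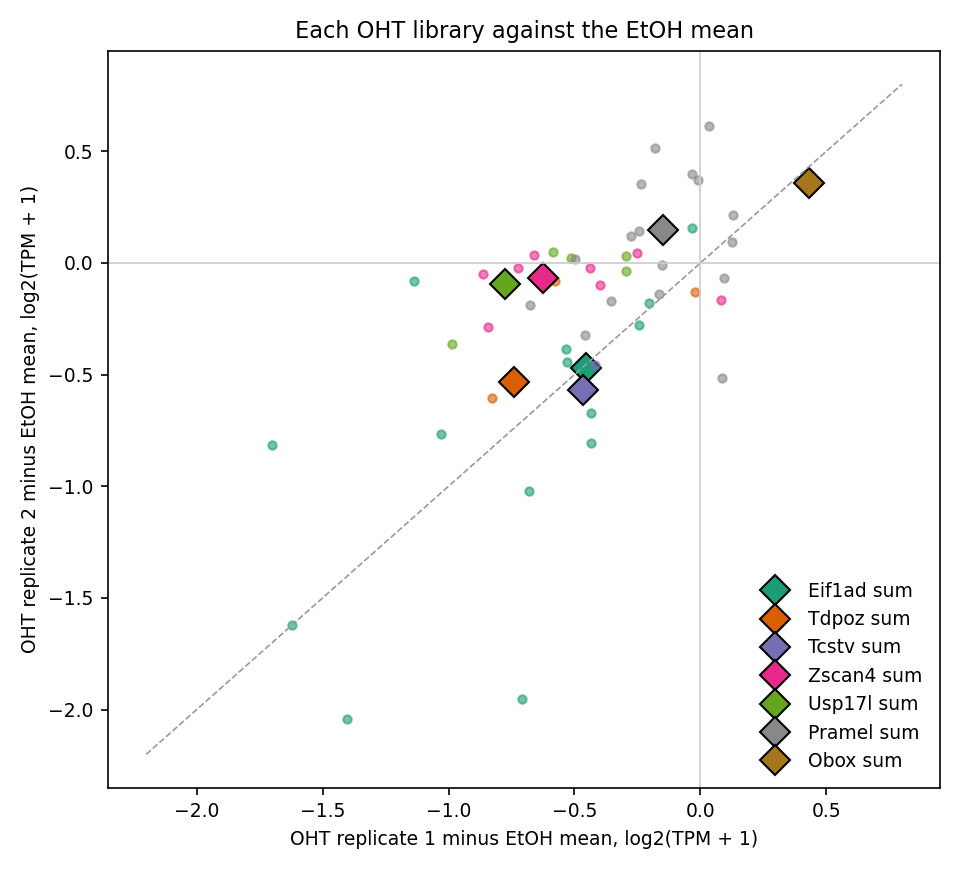
Difference of each OHT library from the EtOH mean on the log2(TPM + 1) scale, replicate 1 on the x axis and replicate 2 on the y axis; diamonds are family sums, small points tested members, and the dashed line marks equal differences. The Eif1ad, Tdpoz and Tcstv sums lie near the line at negative values, the Zscan4 and Usp17l sums are negative mainly along the x axis, and Pramel is negative in replicate 1 and positive in replicate 2.

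Usp17l genes encode deubiquitinating enzymes, and the 5 members lie on chromosome 7 between 103249737 and 104862667. All 5 were lower in OHT replicate 1 than in OHT replicate 2. Usp17lb (chr7:104840257-104842603, minus strand), with 71.9% of its words unique, was at 1.67 and 3.12 TPM in OHT, against 4.60 and 4.00 TPM in EtOH (log2 difference -0.67, SE 0.25, limma adjusted p = 0.436). Usp17lc was at 3.12 and 4.97 TPM in OHT, against 4.29 and 5.56 TPM in EtOH (limma adjusted p = 0.790). Usp17le was at 1.83 and 3.39 TPM in OHT, against 2.99 and 3.52 TPM in EtOH (limma adjusted p = 0.779). Only Usp17la and Usp17lb of the 5 did not overlap between groups, both lower in OHT, where 19.4% of all genes tested lay below without overlap. Against the EtOH mean, the Usp17l sum was -0.78 (log2) in OHT replicate 1 and -0.09 in OHT replicate 2.

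Tdpoz genes encode proteins with TD and POZ domains, related to the ubiquitin ligase adaptor SPOP, and the 9 members lie on chromosome 3 between 93068823 and 94054885. Tdpoz4 (chr3:93796398-93797510, plus strand, a single exon) was at 2.62 and 3.22 TPM in OHT, against 5.59 and 5.27 TPM in EtOH, with no overlap (log2 difference -0.72, SE 0.18, limma adjusted p = 0.296). Tdpoz8 was at 2.48 and 2.22 TPM in OHT, against 2.81 and 2.26 TPM in EtOH (log2 difference -0.08, limma adjusted p = 0.923). Tdpoz3 was at 0.982 and 1.79 TPM in OHT, against 1.70 and 2.23 TPM in EtOH (log2 difference -0.33, limma adjusted p = 0.684). Tdpoz8 and Tdpoz3 overlapped, so Tdpoz4 was the tested member whose groups stood apart, where 19.4% of all genes tested lay below without overlap. Without Tdpoz4 the sum still differed by -0.47 on the log2 scale. The other 6 members were below the mean of 1 TPM, and Tdpoz5 among them was at 0.426 and 0.0976 TPM in OHT, against 0.889 and 1.11 TPM in EtOH.

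Tcstv genes are named for variable expression at the 2-cell stage. Tcstv3 (chr13:120316878-120318178, plus strand) was at 4.67 and 4.52 TPM in OHT, against 5.79 and 7.48 TPM in EtOH (log2 difference -0.44, limma adjusted p = 0.507). Tcstv1 was at 0.267 and 0 TPM in OHT, against 0.756 and 0.420 TPM in EtOH, under the mean of 1 TPM. Both members were lower in OHT, but near-identical gene models outside the symbol rule were more abundant. Gm21761 was at 73.1 and 64.2 TPM in OHT, against 79.4 and 75.5 TPM in EtOH. Gm21818 was at 15.2 and 10.8 TPM in OHT, against 17.5 and 17.0 TPM in EtOH. With those and AF067061 added, the sum was 95.6 and 80.7 TPM in OHT, against 106 and 104 TPM in EtOH, and its log2 difference was -0.26.

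**Figure D5:**
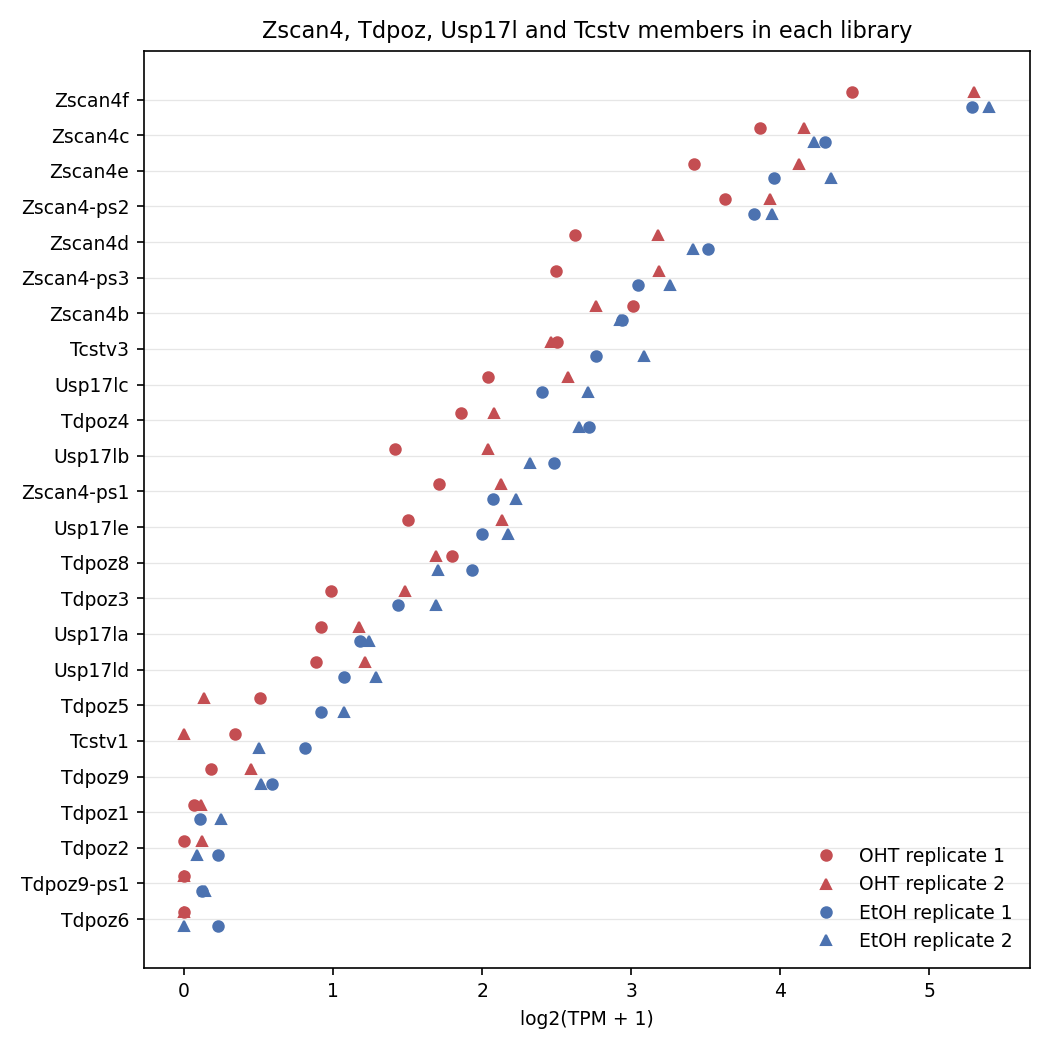
Expression of each Zscan4, Tdpoz, Usp17l and Tcstv member as log2(TPM + 1) (x axis), ordered by mean TPM down the page; red marks are the OHT libraries (upper of each pair), blue marks the EtOH libraries, circles replicate 1 and triangles replicate 2. In most Zscan4 and Usp17l members the OHT circle stands apart to the left, while in Tdpoz4 and Tcstv3 both OHT marks lie left of both EtOH marks.

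Pramel held members with lower means in OHT and members with higher means, and none passed the test. Of its 46 members, 12 were listed at 0 in all 4 libraries and 17 were tested. Summed over members, the lower means came to a difference of -21.7 TPM and the higher means to 23.2 TPM, which nearly cancel in the family sum. Of the 17, 3 lay below without overlap, where 19.4% of all genes tested did. Above without overlap lay 2, where 23.1% of all genes tested did. Pramel7 (chr2:87489087-87497093, minus strand), whose protein promotes loss of the DNA methylation factor UHRF1 in the pluripotent state, was at 65.7 and 74.8 TPM in OHT, against 86.0 and 82.7 TPM in EtOH (log2 difference -0.26, limma adjusted p = 0.505). Its neighbour Pramel6 (chr2:87506565-87510872, plus strand) was at 61.3 and 65.1 TPM in OHT, against 58.4 and 53.6 TPM in EtOH (log2 difference 0.17, limma adjusted p = 0.672). Neither gene passed, though in neither did the groups overlap. Among listed genes, 99.9% of Pramel7 words and 100% of Pramel6 words were unique, so reads shared with those genes do not blur this pair. On chromosome 4, Pramel13 was at 52.2 and 70.6 TPM in OHT, against 51.5 and 55.3 TPM in EtOH (log2 difference 0.18, limma adjusted p = 0.773). Pramel30, with 18.7% unique words, was at 22.0 and 33.4 TPM in OHT, against 21.2 and 21.7 TPM in EtOH (log2 difference 0.32, limma adjusted p = 0.667). In both, OHT replicate 2 was the library set apart. Pramel17 (chr4:101834969-101844023, minus strand) was at 0.720 and 0.889 TPM in OHT, against 1.49 and 1.25 TPM in EtOH (log2 difference -0.39, limma adjusted p = 0.489). The distal chromosome 4 cluster of 21 members summed to 93.0 and 131 TPM in OHT, against 98.0 and 106 TPM in EtOH. The 17 members on chromosome 5 summed to 10.9 and 13.2 TPM in OHT, against 12.1 and 12.7 TPM in EtOH. Both clusters overlapped between the groups.

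Obox was in effect 1 gene in these cells. Obox6 (chr7:15833241-15839678, minus strand) was at 2.97 and 2.87 TPM in OHT, against 1.94 and 2.00 TPM in EtOH (log2 difference 0.40, SE 0.17, limma adjusted p = 0.482). Together with Pramel6 and Pramel30 it was one of the 3 members with both OHT libraries above both EtOH libraries, where 23.1% of all genes tested were. Obox3 was at 0.167 and 0 TPM in OHT, against 0.106 and 0 TPM in EtOH, and Obox1 was listed at 0 in 3 libraries and at 0.101 TPM in EtOH replicate 1. With Obox6 left out, the Obox sum differed by 0.023 on the log2 scale. The oogenesin Oog4 gave the 0.0350 TPM of its family.

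Genes of the same stage and state outside the 8 families were read from 3 lists. Of 17 genes associated with the 2-cell state, 16 were in the table and 9 were tested, of which 0 passed in limma and 2 had unadjusted p under 0.05, both lower in OHT, where 4.46% of all genes tested did. In 4 of the 9 both OHT libraries were below both EtOH libraries, where 19.4% of all genes tested were. In 2 both were above, where 23.1% of all genes tested were. Trim43a, a tripartite motif gene, was at 1.84 and 2.14 TPM in OHT, against 5.61 and 5.30 TPM in EtOH (log2 difference -1.11, limma adjusted p = 0.149). Its relative Trim43b was at 0.443 and 1.49 TPM in OHT, against 3.98 and 3.39 TPM in EtOH (log2 difference -1.30, limma adjusted p = 0.265). Sp110 was at 1.30 and 1.10 TPM in OHT, against 1.88 and 1.55 TPM in EtOH, and Ddit4l at 16.6 and 18.8 TPM in OHT, against 13.9 and 15.4 TPM in EtOH. The median log2 difference of the 9 was -0.16. Duxf3, the gene of DUX, was below the tested range at 0.371 and 0.253 TPM in OHT, against 0.596 and 0.496 TPM in EtOH, and the groups did not overlap. Chit1, also below that range, went the other way at 0.735 and 0.931 TPM in OHT, against 0.335 and 0.365 TPM in EtOH, and the tested Tmem92 was at 6.03 and 6.46 TPM in OHT, against 5.54 and 4.47 TPM in EtOH. Zfp352, another 2-cell marker, overlapped at 1.38 and 2.03 TPM in OHT, against 1.97 and 2.23 TPM in EtOH.

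All 26 regulators of the 2-cell-like state on the list were tested, of which 0 passed in limma and 3 had unadjusted p under 0.05, all lower in OHT, where 4.46% of all genes tested did. Both OHT libraries were below both EtOH libraries in 4 of the 26 regulators, where 19.4% of all genes tested were. They were above in 3, Kdm1a, Ehmt2 and Max, where 23.1% of all genes tested were. Both counts are under those shares. Lin28a, an RNA-binding regulator of let-7, was at 122 and 142 TPM in OHT, against 180 and 186 TPM in EtOH (log2 difference -0.47, limma adjusted p = 0.272). Pcgf6, a subunit of the variant Polycomb complex PRC1.6, was at 59.8 and 66.1 TPM in OHT, against 83.3 and 82.3 TPM in EtOH (log2 difference -0.39, limma adjusted p = 0.328). Trim28, a corepressor of retroviral elements, was at 1056 and 1178 TPM in OHT, against 1357 and 1350 TPM in EtOH (log2 difference -0.28, limma adjusted p = 0.373). In these 3 genes both OHT libraries were below both EtOH libraries. Ythdc1, a nuclear reader of N6-methyladenosine, was at 62.7 and 72.3 TPM in OHT, against 80.1 and 85.4 TPM in EtOH (limma adjusted p = 0.480). The DUX activators Dppa2 and Dppa4 overlapped: Dppa2 was at 161 and 191 TPM in OHT, against 180.1 and 179.7 TPM in EtOH, and Dppa4 at 133 and 125 TPM in OHT, against 132 and 119 TPM in EtOH. The list's median was -0.07.

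Of 20 oocyte and maternal genes, 6 were tested, of which 0 passed in limma and 2 had unadjusted p under 0.05, both higher in OHT, where 6.02% of all genes tested did. Ooep, of the subcortical maternal complex, was at 92.1 and 83.1 TPM in OHT, against 65.0 and 66.4 TPM in EtOH (log2 difference 0.41, limma adjusted p = 0.318). Npm2, a histone chaperone of the egg, was at 2.45 and 1.76 TPM in OHT, against 1.14 and 0.824 TPM in EtOH (log2 difference 0.64, limma adjusted p = 0.362). Nlrp14 was at 0.869 and 1.06 TPM in OHT, against 1.52 and 1.42 TPM in EtOH (limma adjusted p = 0.551). Khdc3 was at 55.3 and 50.8 TPM in OHT, against 48.2 and 47.3 TPM in EtOH (limma adjusted p = 0.725). The list thus held values on both sides, with a median of 0.09 beside 0.02 over all genes tested.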

How the data were processed

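Poly(A)-selected RNA from 4 libraries was prepared with NEBNext Ultra II kits, per the labels' protocols. Strand is not stated there. The authors deposited TPM per gene; Trim Galore, Salmon and GRCm38 (mm10) are named per the submitters' processing notes, with no version or order. No annotation release is named. A further 2 columns of values in the table belong to no sample given and were left out. Of all genes, 4509 were listed at 0 in the 4 libraries.

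Members, lists and tests were chosen with earlier results of these data known. The 12029 genes averaging 1 TPM or more over the libraries were tested as log2(TPM + 1) with limma 3.58.1 (R 4.3.3; trend, two-sided, Benjamini-Hochberg over all genes tested, threshold 0.05), after a run on simulated data. The fit had 2 residual and 4.01 prior degrees of freedom. Family sums were described with SD and overlap. Groups that do not overlap have every OHT value on the same side of every EtOH value.

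Transcripts, older names, lengths and coordinates came from GENCODE M21 (GRCm38), to which all 97 members matched by identifier; it may not be the authors' annotation. Near-identical copies were found with blastn 2.17.0 (at least 95% identity over at least 50% of a transcript). Copies and shared words were sought only among the genes listed with TPM values. Promoters came from the RefSeq table (GRCm38.p6). Genes named by rule were Cbx2, the 3 members of highest mean and up to 2 tested members of smallest p in each family, every member past the threshold, and up to 4 tested genes of smallest p in each list; others were named after their values were seen. The library trend with length and GC content was removed with cubic polynomials. The alternatives tried are other pseudocounts (0.1, 0.5 and 5), filters, scalings and moderation, a replicate block, each library left out, this trend, and other ways of summing members.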

Additional observations from a re-analysis of the deposited data

How the results depend on the processing

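The direction of the Zscan4 and Usp17l sums did not change under another pseudocount, scaling or trend, but both differences rest on OHT replicate 1. Whether the groups of these sums stay apart under another scaling or trend was not computed. With each library left out in turn, the log2 difference ranged from -0.62 to -0.07 for Zscan4, -0.78 to -0.09 for Usp17l, -0.50 to -0.43 for Eif1ad, -0.74 to -0.53 for Tdpoz, -0.64 to -0.40 for Tcstv, -0.15 to 0.15 for Pramel and 0.36 to 0.43 for Obox. The Eif1ad sum gave -0.50 with median-of-ratios scaling, -0.19 with the length and GC trend removed, -0.37 with Eif1a added and -0.68 without Eif1ad10, an alternative chosen after seeing the data. Tdpoz gave -0.46 with a pseudocount of 5, -0.75 with quantile normalization and -0.47 without Tdpoz4. Tcstv gave -0.33 with a pseudocount of 5 and -0.26 with near-identical copies added. Obox gave 0.53, 0.46 and 0.18 with pseudocounts of 0.1, 0.5 and 5, 0.31 with quantile normalization, 0.53 with the trend removed, 0.32 weighted by transcript length and 0.023 without Obox6. The cause was not tested.

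The count of 5 genes past the threshold became 3 with median-of-ratios scaling, quantile normalization or limma without trend, 155 with the trend removed and 0 without a filter (limma; 2228 had unadjusted p under 0.05). The 0 members past it became 1 with a pseudocount of 0.1 (Eif1ad17; 7 of all genes, 0.0582%) and 2 with the trend removed (Eif1ad4 and Eif1ad17; 1.29% of all genes). Eif1ad17 is in the tested range only through its EtOH values. Leaving out a library leaves 1 sample in a group, assumed to vary like the other group, and removes the spread between the OHT replicates where an OHT library goes: 2957 genes and 14 members passed without OHT replicate 1, 2478 and 19 without OHT replicate 2, 46 and 4 without EtOH replicate 1, and 34 and 2 without EtOH replicate 2. Over these runs, 22 to 38 members lay below without overlap and 4 to 10 above, with 2868 to 6774 and 3343 to 7448 of all genes. At a minimum of 5 TPM, which left 21 members and 9151 genes, 11 members and 1919 genes lay below, and 2 members and 1789 genes above. With quantile normalization 34 members and 2948 genes lay below, and with the trend removed 5 members and 3200 genes above. Eif1ad10 turned to 0.13 with the trend removed, Tdpoz8 ranged from -0.19 to 0.038, Usp17lc from -0.52 to 0.020, Usp17le from -0.58 to 0.048 and Pramel13 from -0.033 to 0.40 with single libraries left out (signs turned without EtOH replicate 1, OHT replicate 1, OHT replicate 1 and OHT replicate 2, in that order).

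Replicate numbers are shared by the groups, but nothing in the labels says that they pair the libraries, and with 2 pairs the correlation of same-numbered deviations of 0.29 does not decide it. A fit with the replicate block gave 474 genes (3.94%) and 8 members, all 8 lower in OHT: 7 Eif1ad copies and Tdpoz4. TPM keeps no depth, so what depth limits cannot be given.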
